A study of Homo sapiens with 25 samples.

Results

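The regions described here are 335 H3K4me3 peaks at gene starts that lie inside broad H3K9me3 domains and outside PML domains in control MDA-MB-231 cells. They were chosen by 3 measured values, namely the control H3K4me3 peak list, the control H3K9me3 domain list and the PML domain list, and by position and width. A peak was included when its midpoint lay in a control H3K9me3 domain and in no PML domain, when the midpoint was within 5 kb of an annotated transcription start site (TSS), and when the peak was narrower than 3 kb. Of 22211 control H3K4me3 peaks on chromosomes 1 to 22 and X, 1132 had their midpoint in a control H3K9me3 domain, and 498 of these lay outside PML domains. A further 152 were dropped for distance and 11 for width, which left the 335 peaks. They had 288 distinct nearest genes, 41 of which carried 2 or more of the peaks, so peaks of 1 gene are not independent of each other. Control H3K4me3, control H3K9me3 and PML at these peaks were fixed by the choice and are given as description only.

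The series profiled chromatin of MDA-MB-231, an established human triple-negative breast cancer cell line, by chromatin immunoprecipitation followed by sequencing after fixation with disuccinimidyl glutarate and formaldehyde. Control cells and cells with PML silenced by a lentiviral short hairpin RNA were each profiled for H3K4me3, H3K27ac, H3K9me3, H3K27me3 and lamin B1 (LMNB1) with 2 libraries per target. PML itself was profiled in 3 libraries that name no condition, and each condition had 1 input library. Of the 25 libraries, those of PML, LMNB1, H3K9me3, H3K4me3 and H3K27ac enter here as 9 lists, 1 for each target and condition, so no value per replicate and no replicate error could be given, and no test between conditions was made. Inputs and H3K27me3 were left aside, and the lists allow no check of the PML knockdown itself. The H3K4me3 and H3K27ac lists are marked ct and pml, which were read as control and PML knockdown. The H3K9me3 and LMNB1 domain lists are marked shPML for the knockdown. Those without that mark name no condition and were read as control. Read depth is unknown, and a peak missing from a list was below the calling threshold of that list, which does not show that the mark was absent. As a check of the cell type, all 8 basal and mesenchymal markers looked at (VIM, CD44 and others) had a promoter H3K4me3 peak, as did 6 of 8 luminal markers, and none of 6 leukocyte and endothelial markers did.

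Trimethylation of histone H3 at lysine 4 (H3K4me3) sits at the starts of active and poised genes, and acetylation at lysine 27 (H3K27ac) marks active promoters and enhancers. Trimethylation at lysine 9 (H3K9me3) marks heterochromatin and is laid down over clusters of KRAB zinc finger genes by SETDB1, which TRIM28 brings to sites bound by the zinc finger proteins themselves. Such clusters are known for promoters that carry active marks while the gene bodies carry H3K9me3. PML is the scaffold of PML nuclear bodies, which hold the histone chaperones DAXX and ATRX. Because the domains are broad, a midpoint inside one does not show that H3K9me3 covers the peak itself.

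Sequences at 5 of the peaks show what lies under them. Each is a stretch of 240 bases of the hg38 genome from inside the peak, as near to the summit as was possible without an annotated UTR base, written 5′ to 3′ along the strand of the gene. Capitals mark CG dinucleotides, the substrate of DNA methylation, which are dense at CpG islands. The first is the strongest H3K4me3 peak of the 335, at the ZNF8-ERVK3-1 readthrough transcript (chr19:58279082-58279321, plus strand). It holds 27 CG dinucleotides in 65.8% GC, with 66 of its bases in coding exons and the other 174 in other exons. ZNF8-ERVK3-1 is annotated as a lncRNA. Coding bases were counted for any gene overlapping the stretch, so the 66 are not its own.
ZNF8-ERVK3-1: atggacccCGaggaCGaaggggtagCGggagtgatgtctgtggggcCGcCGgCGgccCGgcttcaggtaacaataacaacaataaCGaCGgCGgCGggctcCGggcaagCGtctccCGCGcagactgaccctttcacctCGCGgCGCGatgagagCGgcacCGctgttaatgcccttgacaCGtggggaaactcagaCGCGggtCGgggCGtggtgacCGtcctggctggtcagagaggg
Readthrough transcripts such as ZNF8-ERVK3-1 were not counted as ZNF genes. By that count the strongest peak at a ZNF gene was at ZNF587 (chr19:57850039-57850278, plus strand), with 14 CG dinucleotides and 33 coding bases.
ZNF587: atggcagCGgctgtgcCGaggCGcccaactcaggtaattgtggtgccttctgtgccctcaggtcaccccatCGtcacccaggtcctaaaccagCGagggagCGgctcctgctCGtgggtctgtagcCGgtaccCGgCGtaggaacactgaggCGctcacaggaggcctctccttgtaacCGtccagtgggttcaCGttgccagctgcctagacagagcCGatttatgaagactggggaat
ZNF761 (chr19:53432193-53432432, plus strand, intronic) stands for the H3K9me3 domain with the most of these peaks and was picked after its values were seen. Its stretch holds 12 CG dinucleotides.
ZNF761: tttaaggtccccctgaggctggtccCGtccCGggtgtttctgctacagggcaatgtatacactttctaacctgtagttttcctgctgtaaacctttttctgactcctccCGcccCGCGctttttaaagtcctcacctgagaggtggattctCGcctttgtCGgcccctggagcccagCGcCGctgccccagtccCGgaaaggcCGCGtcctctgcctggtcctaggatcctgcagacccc
The strongest peak at another protein-coding gene was at PANK3 (chr5:168578909-168579148, minus strand, intronic), a pantothenate kinase of coenzyme A synthesis, with 11 CG dinucleotides.
PANK3: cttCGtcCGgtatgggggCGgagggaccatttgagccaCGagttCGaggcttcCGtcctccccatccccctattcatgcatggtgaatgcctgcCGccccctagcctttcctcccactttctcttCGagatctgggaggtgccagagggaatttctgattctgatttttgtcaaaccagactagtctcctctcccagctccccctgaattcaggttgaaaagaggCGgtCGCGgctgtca
The last is at GADL1 (chr3:30775085-30775324, minus strand, intronic), a gene related to glutamate decarboxylase, and is the strongest of the 4 peaks missing from the knockdown H3K4me3 list. It holds 7 CG dinucleotides in 45.4% GC.
GADL1: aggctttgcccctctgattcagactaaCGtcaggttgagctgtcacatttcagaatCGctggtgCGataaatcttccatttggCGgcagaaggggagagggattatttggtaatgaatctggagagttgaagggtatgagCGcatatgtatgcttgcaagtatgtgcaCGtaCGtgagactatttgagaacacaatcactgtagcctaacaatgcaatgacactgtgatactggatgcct

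The height of a peak is given here by the authors' fold enrichment over background, which ranks peaks within a list. For the 335 peaks the median control H3K4me3 fold was 9.32, with quartiles of 4.89 and 18.4, against 11.6 over all 16670 control peaks narrower than 3 kb within 5 kb of a TSS, which serve as the background below. Median width was 1058 bp against 1216 bp. The midpoints of 230 of the 335 lay within 500 bp of the TSS. The nearest gene was protein-coding for 229 peaks, 68.4% against 78.5% of the background, and a lncRNA for 83, 24.8% against 16.9%. They fell in 132 of the 430 control H3K9me3 domains, and 67 of these domains held a single one.

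The 10 highest control H3K4me3 folds were spread over several chromosomes. ZNF8-ERVK3-1 had a fold of 71.6, PANK3 56.7, and GAS2L3, which links actin filaments to microtubules, 55.3. ZNF587 had 52.1, MTR, the methionine synthase, 51.3, and ZNF736 on chromosome 7 48.2. MED10, a subunit of the Mediator complex, had 45.9, the lncRNA ENSG00000291065 43.99, TTC12, which is needed for ciliary dynein assembly, 41.8, and ENSG00000268750 38.9. All 10 overlapped an H3K27ac peak in both conditions, and all 10 were in the knockdown H3K4me3 list. This is near the share for strong peaks in general. Of all narrow promoter peaks with a control fold of 16.9 or more, 93.5% had control H3K27ac, 94% knockdown H3K27ac and 100% knockdown H3K4me3. Only ZNF736, MED10 and TTC12 among the 10 lay in a knockdown H3K9me3 domain, against 64.8% of all 335. Of the 95 peaks with a control fold of 16.9 or more, 65.3% lay in one. ZNF8-ERVK3-1, ZNF587 and ENSG00000268750 lie in the same control H3K9me3 domain, so their states are not independent.

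**Figure D1:**
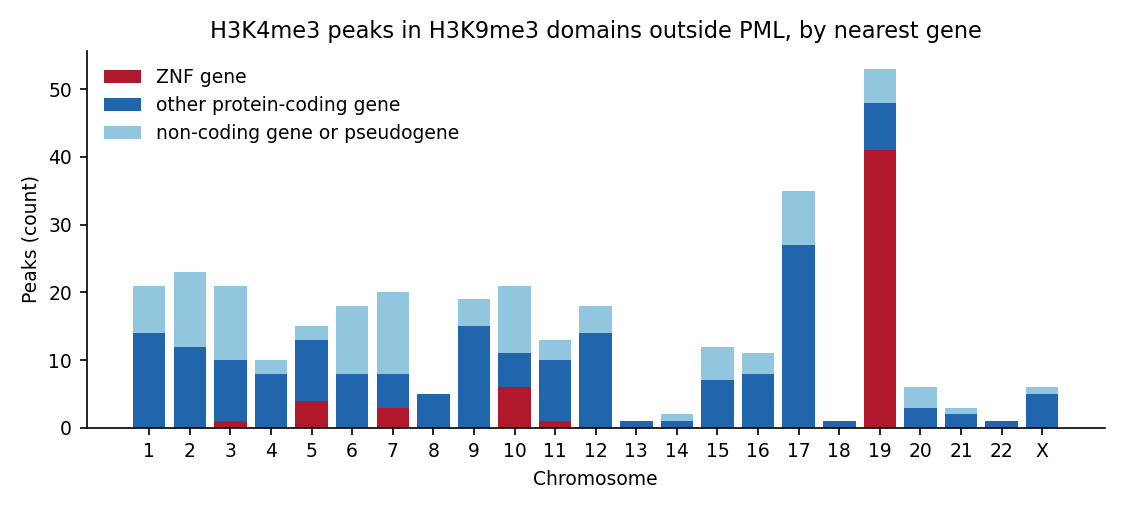
Number of the 335 H3K4me3 peaks on each chromosome (vertical axis, count), split by whether the nearest gene is a ZNF gene, another protein-coding gene, or a non-coding gene or pseudogene. Chromosome 19 holds 53 of them, 41 at ZNF genes, and chromosome 17 holds 35 with none at a ZNF gene.

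ZNF genes, most of which encode C2H2 zinc finger proteins, were nearest to 56 of the 335 peaks, 16.7% against 2.71% of all narrow promoter peaks. The 56 peaks belonged to 49 genes. Chromosome 19 held 41 of them, 77.4% of the 53 peaks there, and without chromosome 19 the share was 5.32%. Counted the other way, 12.4% of the 451 narrow peaks at ZNF genes were among the 335. Readthrough and antisense genes such as ZNF8-ERVK3-1 and ZNF888-AS1 were not counted as ZNF genes. A further 5 of the 335 had a ZNF start within 5 kb, and with any such start counted the share was 18.2%. Peaks in both H3K9me3 and PML domains had a ZNF share of 31.7% (131 of 413), those in PML domains alone 0.863% (8 of 927) and those in neither 1.71% (256 of 14995). ZNF genes are near-identical copies of each other in places, and the handling of reads that map to several copies is not given in these sources, so values at single ZNF genes are uncertain.

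The 10 ZNF peaks with the highest control fold were ZNF587 and ZNF736, then ZNF552 (33.7), ZNF417 (33.2), ZNF709 (26.6), ZNF761 (26.5), ZNF808 (25.7), ZNF544 (24.6), ZNF274 (24.5) and ZNF765 (24.4). Of these only ZNF736, at chr7:64313628-64315499, is not on chromosome 19. The 15 ZNF peaks outside chromosome 19 had control folds from 4.24 to 48.2 with a median of 9.48, against a median of 15.7 for the 41 on it. They include ZNF239, ZNF485 and ZNF32 in 1 domain of chromosome 10 (folds 7.48 to 17.4) and ZNF354A, ZNF354B, ZNF354C and ZNF879 in 1 domain of chromosome 5 (folds 4.24 to 11.2). Both groups lie in domains that were kept along their whole length in the knockdown list.

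H3K27ac overlapped 196 of the 335 peaks in control cells, 58.5% against 70.3% of all narrow promoter peaks. The share was 70.0% in H3K9me3 and PML domains, 69.4% in PML domains alone and 70.7% in neither. Peaks in H3K9me3 and PML domains had a low share too once ZNF peaks or chromosome 19 were set aside. At genes other than ZNF genes it was 61.3% there and 54.1% among the 335, and without chromosome 19 it was 58.8% and 53.2%. It was larger among stronger H3K4me3 peaks. All narrow promoter peaks were split into 3 equal groups by control H3K4me3 fold, with bounds at 7.44 and 16.9. Of the 335 peaks, 136 fell into the weakest group, 104 into the middle and 95 into the strongest, and their H3K27ac shares were 39.0%, 57.7% and 87.4%. Over all narrow promoter peaks the groups gave 49.2%, 68.3% and 93.5%, and in H3K9me3 and PML domains 38.9%, 68.3% and 93.8%. The share was thus below the background in each group, by an amount that was not tested.

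**Figure D2:**
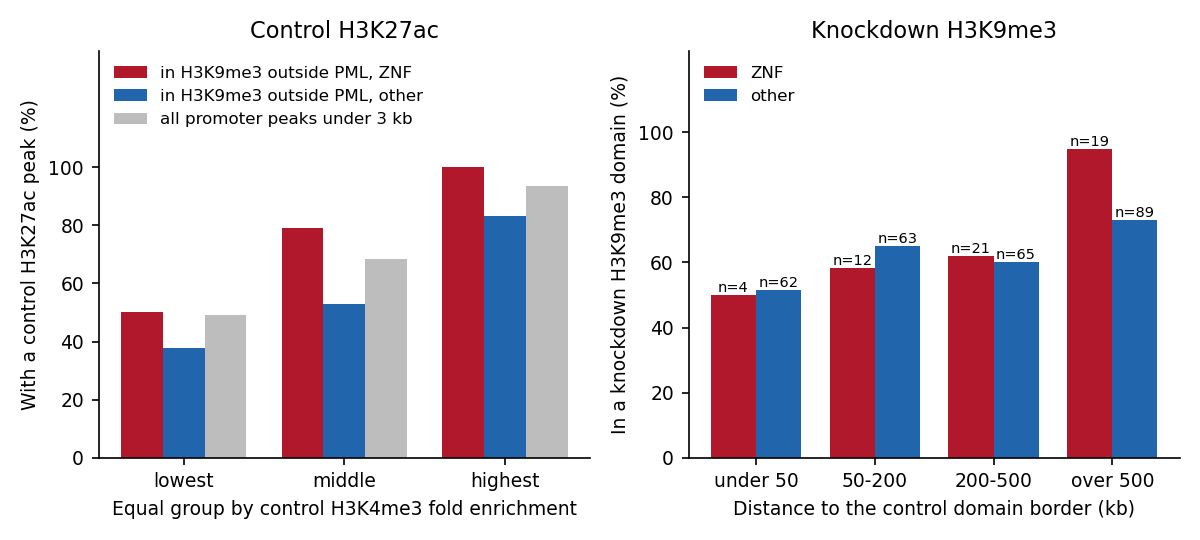
Left, share of peaks with a control H3K27ac peak (vertical axis, %) by the 3 equal groups of control H3K4me3 fold, for the 335 peaks at ZNF genes and at other genes and for all narrow promoter peaks. Right, share of the 335 peaks in a knockdown H3K9me3 domain (%) by distance to the border of the control domain in kb, with the number of peaks above each bar. Peaks at ZNF genes reach 100% H3K27ac in the strongest group, and 94.7% of 19 ZNF peaks over 500 kb from a border lie in a knockdown domain. Most of these 19 lie in the same control H3K9me3 domain of chromosome 19, so they are not independent and show no trend with distance.

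The H3K27ac share was higher at ZNF genes than at other genes. Of the 56 ZNF peaks, 45 had control H3K27ac (80.4%), against 88.5% of 131 ZNF peaks in H3K9me3 and PML domains and 74.6% of 256 in neither kind of domain. Of the 279 peaks at other genes, 151 had it (54.1%), against 61.3% of 282 in H3K9me3 and PML domains and 70.6% in neither. From the weakest to the strongest group of control H3K4me3 fold the ZNF peaks had 50% of 14, 78.9% of 19 and 100% of 23, and the others 37.7% of 122, 52.9% of 85 and 83.3% of 72. No test of these differences was made, and neighbouring genes of a cluster share their surroundings.

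The highest control H3K27ac fold was at ZNF274, 40.9 in control and 54.2 in the knockdown list. ZNF274 is itself a KRAB zinc finger protein that binds other ZNF genes and recruits SETDB1. SFSWAP, a splicing regulator, had 39.3 and 37.4, and TMEM18, a nuclear membrane protein, 32.3 and 36.7. NUAK1, an AMPK-related kinase, had 33.6 and 28.5, at a weak H3K4me3 peak (fold 5.57). The lncRNA LINC00511 had 33.0 and 49.95, also at a weak H3K4me3 peak (7.55). Over the 196 peaks with H3K27ac the median control fold of H3K27ac was 6.43, against 7.02 over all narrow promoter peaks with it.

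The other end of the range is formed by 107 peaks with H3K27ac in neither list. Their median control H3K4me3 fold was 5.25, but some had strong H3K4me3. The lncRNA PRKCQ-AS1 had 24.4, EIF4E3, a cap-binding protein, 23.8, and CEP112, a centrosomal protein, 21.4. TNRC6C, which acts in microRNA silencing, had 19.5, and KSR1, a scaffold of the MAP kinase cascade, 18.3. All 5 were also in the knockdown H3K4me3 list, with folds from 18.0 (EIF4E3) to 39.0 (KSR1). These 5 were picked after their values were seen.

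**Figure D3:**
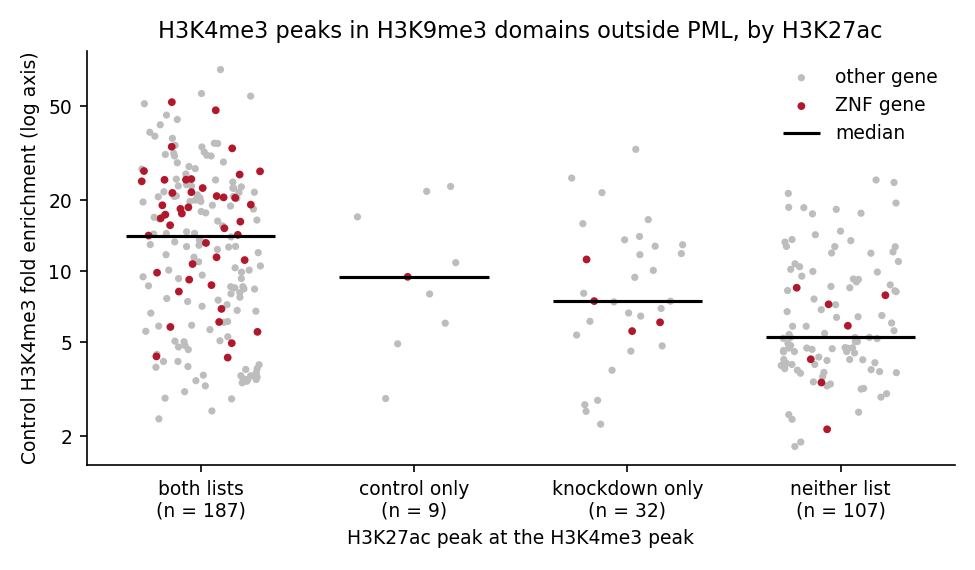
Control H3K4me3 fold enrichment (log axis) of each of the 335 peaks, grouped by whether it overlaps an H3K27ac peak in both lists, in 1 list or in neither. Red points are ZNF genes and black lines are medians, which run from 14.2 with H3K27ac in both lists to 5.25 in neither.

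H3K4me3 was called in the knockdown list at 331 of the 335 peaks, 98.8% against 99.4% of all narrow promoter peaks. The 4 that were missing were weak in control cells. GADL1 had a control fold of 3.70, KLHL3, an adaptor of a ubiquitin ligase that targets WNK kinases, 2.93, FAM110B 2.88 and the lncRNA ENSG00000226281 2.37. KLHL3 and ENSG00000226281 lay in knockdown H3K9me3 domains, and GADL1 and FAM110B did not. All 4 lay in the weakest group of control fold, where 97.1% of the 136 peaks were found again, against 98.2% of all narrow promoter peaks of that group. The 331 peaks matched 314 distinct knockdown peaks, so some neighbours in the control list correspond to 1 knockdown peak. Folds in the knockdown list were higher in general, with a median of 18.9 at these peaks and 24.3 at all narrow promoter peaks, and the lists are not on a common scale.

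H3K27ac in the knockdown list overlapped 219 of the 335 peaks, 65.4% against 74.8% of all narrow promoter peaks. In H3K9me3 and PML domains the share was 71.2%. At genes other than ZNF genes it was 61.3% among the 335 and 61.7% in H3K9me3 and PML domains, and without chromosome 19 it was 61.0% and 59.2%. Of the 335, 187 had H3K27ac in both lists, 32 in the knockdown list only, 9 in the control list only and 107 in neither. Knockdown-only H3K27ac made up 9.55% of the peaks against 6.42% of all narrow promoter peaks, and control-only H3K27ac 2.69% against 1.96%. The knockdown list of H3K27ac held more peaks, 43675 against 42396. Whether these shares differ from the background was not tested.

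The 9 peaks with H3K27ac in the control list only include both peaks of MSI2, an RNA-binding protein, with control H3K27ac folds of 4.39 and 4.65. GRB10, an imprinted adaptor of insulin signalling, had 3.74, the lncRNA ENSG00000258422 5.23, and ZNF727 3.86. All 5 had H3K4me3 in both lists. The 32 with H3K27ac in the knockdown list only were led by PID1, an adaptor that binds the lipoprotein receptor LRP1, with a control H3K4me3 fold of 32.9 and a knockdown H3K27ac fold of 4.33. MFSD9 had a knockdown H3K27ac fold of 5.84, SCPEP1, a serine carboxypeptidase, 3.52, LYPD1 5.35, and PLXNA2, a semaphorin receptor, 8.48. Each of these folds lies below 8.70, the median knockdown H3K27ac fold over the 219 peaks. Of the 32, 19 lay in a knockdown H3K9me3 domain (59.4%), against 126 of the 187 with H3K27ac in both lists (67.4%).

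**Figure D4:**
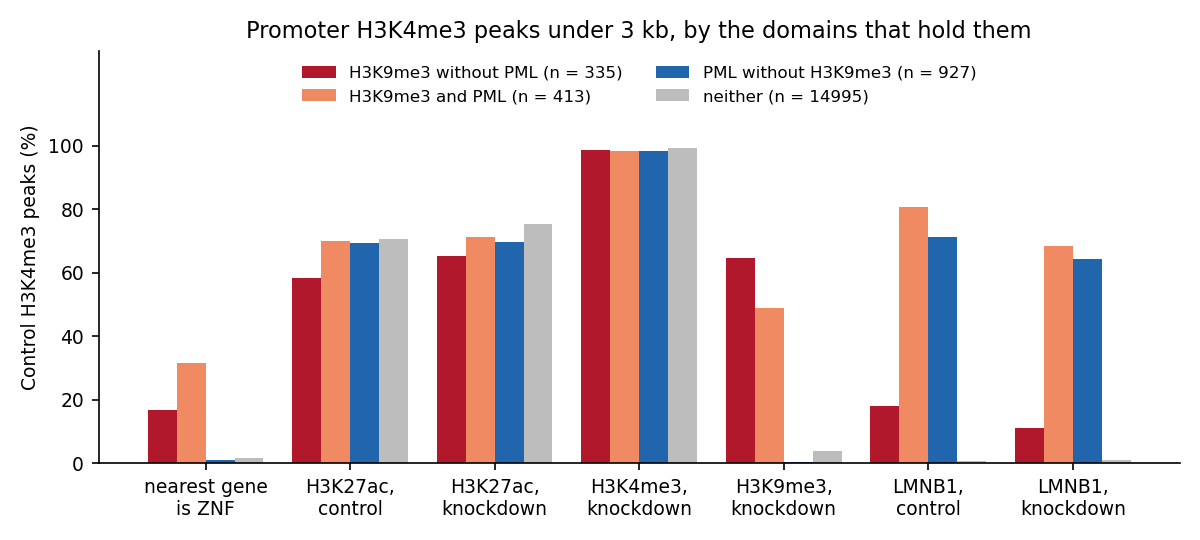
Share of narrow promoter H3K4me3 peaks (vertical axis, %) with each feature, for the 335 peaks in H3K9me3 domains outside PML and for the 3 other classes. The 335 peaks have H3K27ac shares of 58.5% in control and 65.4% in knockdown lists, against 70.0% and 71.2% for peaks in H3K9me3 and PML domains, whose ZNF share is higher (31.7% against 16.7%).

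H3K9me3 domains of the knockdown list held 217 of the 335 peaks (64.8%). Of all narrow promoter peaks 5.86% lay in such a domain, and of the 748 in control H3K9me3 domains, with or without PML, 56% did. For the 413 peaks in both H3K9me3 and PML domains the share was 48.9%. Without chromosome 19 the shares were 64.5% of 282 and 31.7% of 240. The lists held 430 control and 281 knockdown H3K9me3 domains, with bounds on grids of 23 kb and 35 kb, which limits what a border can show. A share of 71.4% of ZNF peaks and 63.4% of the others lay in knockdown domains.

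Peaks of 1 domain mostly shared their state. Of the 65 domains with 2 or more of the peaks, 32 had all of them in a knockdown domain, 21 none and 12 some. Several of the 65, such as those of PLXNA2 and PDZD8, hold only neighbouring peaks of 1 gene. Such peaks can hardly differ in state on the 35 kb grid of the knockdown list. The median distance to the border of the control domain was 271 kb, and 66 peaks lay under 50 kb from it. In a knockdown domain were 51.5% of those 66, 64.0% of the 75 at 50 to 200 kb, 60.5% of the 86 at 200 to 500 kb and 76.9% of the 108 farther in. The 118 peaks outside knockdown domains had a median distance of 954.6 kb to the nearest one. Of these 118, 25 were within 50 kb of one and 81 were over 500 kb away.

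Peaks well inside a control domain are the least open to border effects. Among those 50 kb or more from a border and in a knockdown domain, the strongest were ZNF736, MED10, TTC12, NCAPD3, a condensin II subunit (control fold 37.4), and SHC3, a signalling adaptor (34.2). Among those outside knockdown domains they were GAS2L3, ZNF587, MTR, ENSG00000291065 and ENSG00000268750. All 10 had H3K27ac in both lists. In the strongest group by control H3K4me3 fold, 93.5% of all narrow promoter peaks had it in control and 94% in the knockdown list. H3K27ac shares were compared over all 335 peaks. In control cells 60.8% of the 217 in knockdown domains and 54.2% of the 118 others had it, and in the knockdown list 66.8% and 62.7%. Knockdown H3K4me3 was called at 215 of the 217 and 116 of the 118.

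A pair of ZNF clusters on chromosome 19 shows both outcomes. The first, chr19:51750001-53797000 (hg38), holds 28 of the peaks, more than any other domain, and 24 of them are at ZNF genes. All 28 lay in a knockdown H3K9me3 domain, and 99.9% of the domain's length was covered by one. PML domains cover 35.6% of it, up to position 52479000, and all 28 peaks lie beyond that point. No LMNB1 domain of either condition overlaps it. Another 16 narrow promoter peaks lie in its PML-covered stretch, and all 16 were in the knockdown H3K9me3 domain as well.

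Control H3K4me3 folds in this first cluster ran from 2.14 at 1 start of ZNF331 to 26.5 at ZNF761, with a median of 16.2, and all 28 were called again in the knockdown list. Behind ZNF761, ZNF808 and ZNF765 came the lncRNA ENSG00000290073 (25.9), the 2 peaks of ZNF28 (24.1 and 21.5), the ZNF816-ZNF321P readthrough (23.3), ZNF320 (21.7), ZNF321P (20.8) and the stronger peak of ZNF83 (20.6). ZNF611 had 19.1, ZNF600 18.7, ZNF845 17.6, ZNF701 16.8, the strongest peak of ZNF331 15.7, ZNF888-AS1 14.4, ZNF665 14.3 and ZNF525 13.2. The weaker ones were ZNF347 (11.5), ZNF415 (11.2), ZNF160 (10.7), ZNF813 (8.52), the other peak of ZNF83 (8.21), ENSG00000291131 (6.88) and the pseudogene ZNF702P (6.10 and 4.31). The 2 other peaks of ZNF331 had 3.38 and 2.14.

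H3K27ac was present at 24 of the 28 in both lists. The 4 without it in either were ZNF813, ENSG00000291131 and the 2 weaker starts of ZNF331. Over all narrow promoter peaks, 11396 of 16670 had H3K27ac in both lists. So did 44 of the 56 ZNF peaks, which include those of this cluster. Of the 131 ZNF peaks in H3K9me3 and PML domains, 116 had it in both lists. Whether the cluster differs from these sets was not tested. ZNF331 is an imprinted gene with several promoters, and its strongest peak had both marks while the others had H3K4me3 alone. Control H3K27ac folds in the cluster were highest at ZNF701 (21.2), ZNF888-AS1 (20.9) and the stronger peak of ZNF83 (18.6), and the median was 7.21.

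The second cluster, chr19:56189001-58305000 (hg38), holds 13 of the peaks, 10 of them at ZNF genes. None of the 13 lay in a knockdown H3K9me3 domain. The knockdown domain covers 50.6% of the control domain and ends at position 57260000, while the first of the 13 peaks starts at 57769410. PML domains cover 74.3% of the control domain and end at 57762000. LMNB1 covers 74.5% of it in control cells and 42.6% after knockdown. Of 29 further narrow promoter peaks in the PML-covered stretch, 9 lay in the knockdown H3K9me3 domain.

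**Figure D5:**
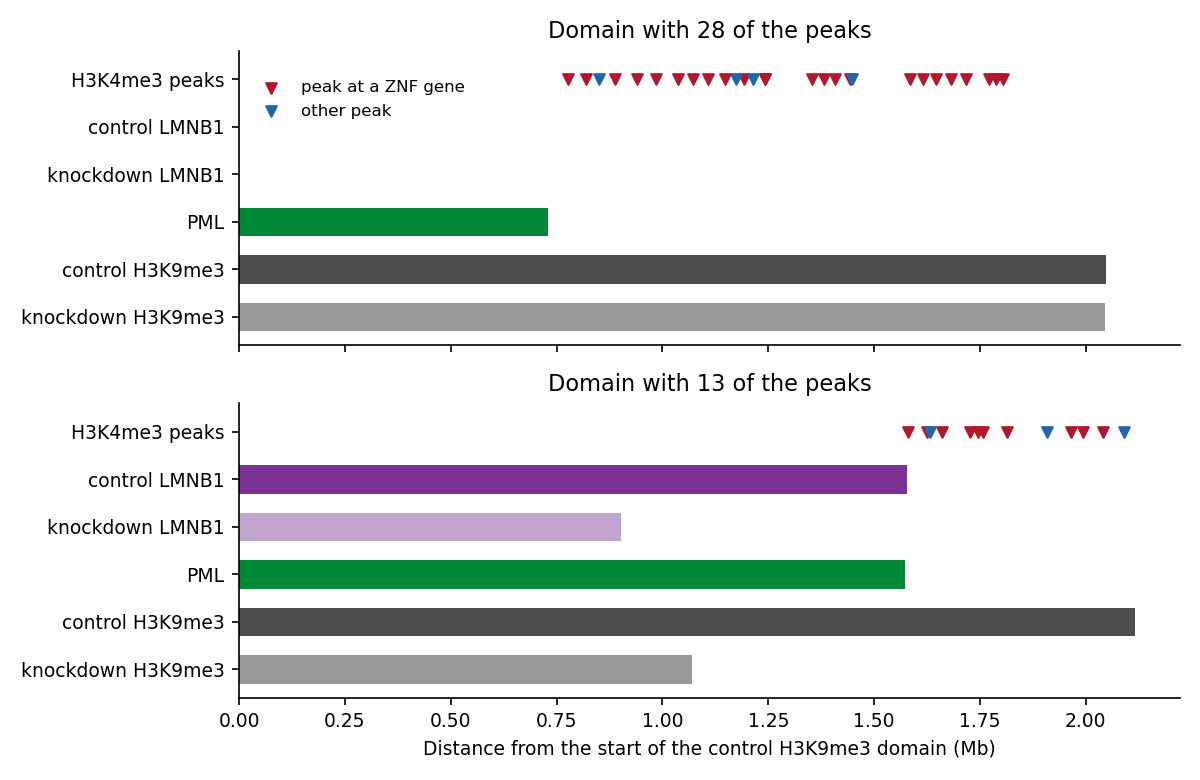
The pair of chromosome 19 ZNF clusters, drawn by distance from the start of the control H3K9me3 domain (horizontal axis, Mb), with bars for LMNB1, PML and H3K9me3 domains and triangles for the H3K4me3 peaks. In the upper domain the knockdown H3K9me3 bar runs under all 28 peaks, and in the lower domain it stops short of all 13.

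All 13 peaks of the second cluster were in the knockdown H3K4me3 list. ZNF8-ERVK3-1 had a control fold of 71.6 and a knockdown fold of 93.2, ZNF587 had 52.1 and 88.2, and ENSG00000268750 38.9 and 95.5. ZNF552 had 33.7 and 43.4, ZNF417 33.2 and 73.5, ZNF544 24.6 and 43.4, and ZNF274 24.5 and 43.8. The remaining 6 were ZNF606 (15.2 in control), ZSCAN18 (8.02), ZNF418 (7.92), ZNF256 (6.08), ZNF586 (5.58) and ZNF329 (4.36). The knockdown folds were higher than the control folds at all 13, as they were in the medians of the whole lists.

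H3K27ac was called at 10 of the 13 in control cells and at 11 after knockdown. ZSCAN18 had it in the control list only (2.92), ZNF256 (2.92) and ZNF586 (3.6) in the knockdown list only, and ZNF418 in neither. The highest knockdown H3K27ac folds were at ZNF274 (54.2), ZNF587 (29.9) and ZNF8-ERVK3-1 (21.3). The 13 peaks outside the knockdown H3K9me3 domain and the 28 inside it were thus all in the knockdown H3K4me3 list. So were 99.4% of all narrow promoter peaks. H3K27ac differed between the lists at 3 of 13 and at none of 28 peaks, and the 3 calls had low folds. Over all narrow promoter peaks it was in the control list only at 1.96% and in the knockdown list only at 6.42%. Whether these counts differ was not tested.

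Outside chromosome 19 the largest groups lie on chromosomes 17, 9, 12 and 5. The domain chr17:69506001-74750000 holds 16 of the peaks, of which 10 lay in knockdown H3K9me3 domains. Its highest control folds were at SLC9A3R1-AS1 (22.95), RPL38, a ribosomal protein (16.7), SSTR2, a somatostatin receptor (13.6), and COG1, a Golgi protein (13.3). SSTR2, both peaks of COG1, C17orf80 (12.4) and both peaks of CDC42EP4 fell into a stretch between knockdown domains that end at 73150000 and start again at 73360001. RPL38, MGC16275 (11.0) and 3 peaks of LINC00511 stayed inside them. SSTR2 had H3K27ac in neither list, and the other 5 of that stretch had it in both.

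The domain chr9:86342001-91034000 holds 14 peaks, all in a knockdown domain. SHC3 had 2 peaks (34.2 and 18.9), SPIN1, whose protein reads H3K4me3, 2 peaks (20.5 and 19.7), CDK20 17.9 and CTSL, a lysosomal protease, 14.7. All of these had H3K27ac in both lists. At chr12:125143001-131721000, 7 of 8 peaks lay in a knockdown domain. The exception, SFSWAP (33.6), is 9.5 kb from the control border and just beyond the end of the knockdown domain at 131705000. RAN, the nuclear transport GTPase, had 21.4 at its main peak, ADGRD1-AS1 22.8, STX2, a syntaxin, 14.3 and SLC15A4, a lysosomal transporter, 17.5 and 8.61.

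The zinc finger domain chr5:178227001-179492000 differed from the chromosome 19 clusters in H3K27ac. Its 7 peaks are at PHYKPL (2 peaks), ZNF354A, ZNF354B, ZFP2, ZNF879 and ZNF354C, and all 7 lay in a knockdown H3K9me3 domain that covers 100% of it. It overlaps no PML and no LMNB1 domain. Only the stronger PHYKPL peak (control H3K4me3 fold 23.9) had H3K27ac in the control list, with a fold of 5.96, and ZNF354B had it in the knockdown list only, with 4.77. The median control H3K4me3 fold of the 7 was 5.88, against 16.2 in the first chromosome 19 cluster. This domain falls outside the rule for named genes and was picked after its values were seen.

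LMNB1 domains, which mark contact with the nuclear lamina, held 60 of the 335 peaks in the control list (17.9% against 7% of all narrow promoter peaks) and 37 in the knockdown list (11.0% against 6.27%). Of the 60, 32 lay in a knockdown LMNB1 domain as well (53.3%). The same share was not computed over the 1167 narrow promoter peaks in control LMNB1 domains, so whether 53.3% is unusual is unknown. For peaks in PML domains the control LMNB1 share was 80.6% with H3K9me3 and 71.3% without. Of the 60 peaks, 45.0% had control H3K27ac and 46.7% lay in a knockdown H3K9me3 domain, against 61.5% and 68.7% of the 275 others. The strongest of the 60 were GAS2L3, PID1, MFSD9, PRKCQ-AS1 and ZNF202 (22.5), followed by RORA, a nuclear receptor (21.6). Of these 6, GAS2L3, PID1 and ZNF202 stayed in a knockdown LMNB1 domain, and PRKCQ-AS1 and RORA stayed in a knockdown H3K9me3 domain. They were picked after their values were seen.

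Gene lists were counted among the 288 nearest genes, which are 2.18% of the 13208 genes with a narrow promoter peak. At that share, lists this short would hold few or no genes, so a count of 0 is near the background. None of 13 housekeeping, 14 histone, 18 interferon-stimulated, 14 tumour suppressor and metastasis, 8 clustered protocadherin or 2 germline genes with a narrow promoter peak was among them. Solute carriers gave 6 of 157 genes (3.82%), and their 7 peaks all lay in knockdown H3K9me3 domains, against 64.8% of all 335. They were SLC15A4 (2 peaks), SLC2A10 (9.93), SLC39A11, a zinc transporter (6.96), SLC2A9, a urate transporter (6.03), SLC9A2 (4.57) and SLC13A3 (3.87). The 2 peaks of SLC15A4 share a domain, as do those of SLC2A10 and SLC13A3, so the 7 are not independent. H3K27ac was called at 2 of the 7 in each list, at SLC15A4 and SLC2A9 in control cells and at SLC15A4 and SLC39A11 in the knockdown list.

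Imprinted genes gave 3 of 18 genes with a narrow promoter peak, ZNF331, GRB10 and ZFAT, with 7 peaks. GRB10 had 3 peaks with control folds of 17.0, 6.75 and 5.85, all in a control LMNB1 domain and none in a knockdown LMNB1 or H3K9me3 domain. ZFAT had 1 peak (16.3) with H3K27ac in both lists, in a knockdown H3K9me3 domain. Developmental transcription factors of the HOX, SOX, PAX, FOX and related families gave 1 of 60, FOXQ1, with 3 peaks (13.3, 11.9 and 5.6), none in a knockdown H3K9me3 domain. Keratins gave 1 of 4, KRT19 (4.33), without H3K27ac. Of 21 writers, readers and erasers of H3K9 methylation with a narrow promoter peak, ZNF274 alone was included.

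A few groups of neighbouring peaks stood out by position and were picked after their values were seen. The peaks of each group lie in the same control H3K9me3 domain and are not independent of each other. Over all 335 peaks, 64.8% lay in a knockdown H3K9me3 domain. T cell receptor beta variable segments, which are rearranged and expressed in T cells, were nearest to 5 of the peaks, TRBV7-3, TRBV11-1, TRBV12-2, TRBV13 and TRBVB. These are all of the 5 such peaks in the background, with control folds of only 3.63 to 5.46. All 5 lay in a knockdown H3K9me3 domain, and 3 had H3K27ac in both lists, with a control H3K27ac fold of 16.4 at TRBV12-2. The leukocyte markers above had no promoter peak. ID2, an inhibitor of helix-loop-helix transcription factors, and its antisense gene had 4 peaks of 6.04 to 10.2, all in a knockdown H3K9me3 domain, with no control H3K27ac and 1 knockdown H3K27ac peak. TPM4, a tropomyosin, had 3 peaks of 3.42 to 8.12, all with H3K27ac in both lists and none in a knockdown H3K9me3 domain.

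Base composition of the peaks was close to the background. In 300 bases around the summit the median GC content was 59.3% against 60.0%, and the median ratio of observed to expected CG dinucleotides 0.644 against 0.640. The 56 ZNF peaks had a ratio of 0.784, with a lower quartile of 0.645, against 0.619 for the other 279 and 0.665 for ZNF peaks in neither kind of domain. The printed stretch of ZNF8-ERVK3-1 has a ratio of 1.06 and that of ZNF587 0.631. Peaks without control H3K27ac had a median ratio of 0.675 and those with it 0.614.

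Short motifs were searched on both strands of the same 300 bases, as a description only. CCGGAAG, the core bound by ETS factors, was found in 8.36% of the 335 windows and in 5.13% of all narrow promoter windows. Within the 335 it was in 11 of 56 ZNF windows (19.6%) and 17 of 279 others (6.09%), and in 5.86% of ZNF windows in neither kind of domain. CCAAT was in 18.2% against 22%, and in 3 of the 56 ZNF windows (5.36%). GGGCGG, the Sp1 core, was in 32.2% against 38.3%, and it occurs in the printed stretches of PANK3 and ZNF761. AAGATGG was in 3.58% against 4.27%, GCATGCGC in 0.896% against 0.876% and TATAAA in 6.57% against 5.10%. TGACGTCA was in none of the 335 and in 0.282% of all. ZNF genes of a cluster are copies of each other, so their windows are not independent.

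With distance counted from the TSS and negative upstream, CADPS at -4550 bp, WASF1P1 at -4890 bp and ENSG00000283459 at -4941 bp were the last included, with control folds of 6.42, 5.28 and 3.44. ENSG00000216966, UNC5CL and a further peak of CDC42EP4 at 5014, 5056 and -5522 bp were the first left out, with folds of 2.88, 12.9 and 5.74. At a width of 3 kb, C17orf80, PDZD8 and ENSG00000290735 were the widest included (folds 12.4, 30.8 and 20.7). BPNT2, CLK4 and MTRR, the last an activator of the methionine synthase MTR, were the narrowest left out, with folds of 60.1, 55.2 and 32.3.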

How the data were processed

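Chromatin immunoprecipitation libraries of MDA-MB-231 cells were compared through the lists that the authors deposited. Groups followed the labels. The submitters' processing notes name the build hg38 and, with no role given, the tools deepTools, MACS2 2.2.7.1, BWA 0.7.12-r1039 and Picard 1.104. The narrowPeak lists give a fold enrichment, a ratio, for each peak in the deposited files, and a -log10 q-value for each peak in the deposited files. Names of the deposited peaks show that both replicates of a group entered 1 call. The domains are labelled EDD and carry a score each, which the authors deposited without saying its unit. Labels of the domain lists do not say which replicates entered. Normalization, duplicate removal and the treatment of reads that map to several places are not given in the sources used here, so folds were ranked only within a list. Depth is unknown, so no counting interval could be given.

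Peaks on chromosomes 1 to 22 and X were assigned to the nearest of 251784 transcript starts of GENCODE release 44, which include non-coding and alternative starts. A peak had another mark when it overlapped a peak of that list by at least 1 bp, and the highest fold among those was taken. It lay in a domain when its midpoint did. ZNF genes were those with the symbol ZNF, a number and at most 1 further letter, which leaves out readthrough and antisense genes and ZNF37BP. A share over the 335 peaks stands beside the same share over all narrow promoter peaks. No test was run, because each target and condition has 1 list. Named genes were the 10 with the highest control H3K4me3 fold overall and among ZNF genes, all peaks without knockdown H3K4me3, up to 5 in each changed H3K27ac state, the 5 with the highest control H3K27ac, up to 5 deep in domains with and without knockdown H3K9me3, peaks of the 5 fullest domains, 3 on either side of each limit, and members of fixed gene lists. The peaks and lists were chosen with earlier results of these data known. The interval steps were tested on simulated data. The work used pysam 0.24.0, scipy 1.17.1, matplotlib 3.10.9, pandas 2.3.3 and numpy 2.4.6 in Python 3.11.15. Alternatives changed the TSS set, the inside rule, distance to borders, thresholds, width and overlap, and left out chromosome 19.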

Additional observations from a re-analysis of the deposited data

How the results depend on the processing

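Of 75 alternative values of the number of peaks and their 7 shares, 57 stayed within 1.5 times the number or inside the 95% Wilson interval of the share, and 18 did not. The interval treats the peaks as independent, which they are not, and serves only as a yardstick. Many alternatives are subsets of the same peaks, so these counts describe shifts and do not measure robustness. With starts of canonical protein-coding transcripts only, 217 peaks remained, with a ZNF share of 23.5% and knockdown H3K4me3 at 99.5%. In H3K9me3 domains with a score at or above the median the ZNF share was 23.3%, control H3K27ac 64.0%, knockdown H3K27ac 71.5% and knockdown H3K9me3 72.8%. Below 1500 bp in width they were 9.70% for ZNF, 46.0% for control H3K27ac and 54.0% for knockdown H3K27ac. Without chromosome 19 the ZNF share was 5.32%, and without the 2 domains with most ZNF peaks, an alternative chosen after seeing the data, 7.48%. With at least 50% of the peak covered, H3K27ac was at 43.9% in control and 53.1% in knockdown cells, and with a -log10 q of at least 5 in those lists at 52.8% and 59.7%. Knockdown H3K4me3 was 93.7% with lists of equal size, and 100% of the peaks with a -log10 q of at least 5 in the control list. The cause of these shifts was not tested. No paired analysis was possible because each target and condition has 1 list, and for the same reason no replicate could be left out. Unknown depth limits every absence from a list.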

Other observations

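The knockdown H3K4me3 list holds promoter peaks in the same control H3K9me3 domains outside PML that overlap no control H3K4me3 peak. Of 417 narrow promoter peaks of the knockdown list there, 120 overlapped no control H3K4me3 peak (28.8%), against 3377 of 17194 over all narrow promoter peaks of that list (19.6%). They were weak, with a median knockdown fold of 4.72 against 17.9 for the shared peaks there. Of the 120, 3 were at ZNF genes (2.5% against 0.592% of the 3377) and 66 at protein-coding genes (55% against 64.5%). A knockdown H3K27ac peak overlapped 58 (48.3% against 67%) and a control one 45 (37.5% against 61.1%). In a knockdown H3K9me3 domain lay 91 of the 120, and this share was not computed over the 3377. All 120 were taken from control H3K9me3 domains, where 64.8% of the 335 control peaks lay in a knockdown one.

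The highest folds among these 120 were at POU2AF3 (12.6) and FSTL4 (12.1), both without H3K27ac in either list, and FSTL4 in a knockdown H3K9me3 domain. A pseudogene, ENSG00000272710, had 11.9, STX2, a syntaxin, 10.4, PPP1R14C, an inhibitor subunit of protein phosphatase 1, 10.3 and SORL1, a sorting receptor, 10.1. None of these had H3K27ac in either list. WDR1, an actin-disassembly factor, had 7.75 with H3K27ac folds of 16.9 in control cells and 28.4 after knockdown. The control list held 22284 peaks and the knockdown list 27828, and whether the longer list gives these calls was not tested. These genes were picked after their values were seen.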
